A study of Homo sapiens with 8 samples.

Results

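The response of cyclin B1-positive HT29 cells to the MEK inhibitor selumetinib was measured by poly(A) mRNA-seq after 24 h at 1 μM. It was taken as the difference between 2 selumetinib-treated and 2 untreated CCNB1-positive libraries, out of 8 libraries in all. The members are the 14219 genes whose mean level over the 8 libraries reached 1 RPM, out of 38148 genes in the deposited table, and all of them were tested. RPM here stands for reads scaled to a common library size as in that table, whose log2 values the authors had normalised to total read counts. The level is fixed by the mean over all libraries and not by any difference between them.

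HT29 is a human colorectal adenocarcinoma line that carries the BRAF V600E mutation. Its cells were fixed with glyoxal, stained for CCNB1 and separated by flow sorting into CCNB1-positive and CCNB1-negative cells, each from cultures left untreated or given selumetinib, with 2 libraries per group. Nothing in the labels says whether the 2 libraries of a group came from separate cultures, so that p-values measure only the spread between these libraries. The labels call the controls untreated and name no vehicle, and a single line was used, so what follows holds for this line at this dose and time. For all 8 libraries the sample title and the sample description name opposite treatments and opposite fractions. Conditions here follow the description, which matches the column names of the table, and under this reading the gate markers were high in the libraries called CCNB1-positive.

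MEK1 and MEK2 phosphorylate ERK1 and ERK2, which BRAF V600E keeps active without growth factor. Active ERK drives transcription of ETS factors, AP-1 components and its own inhibitors of the dual-specificity phosphatase and Sprouty families, and through MYC and cyclin D1 it licenses passage from G1 into S phase. Cyclin B1 protein builds up from S phase to a peak at G2 and early mitosis, when it activates CDK1, and it is destroyed as mitosis ends. A CCNB1-positive cell lies past G1, and whether it left G1 before or after the drug was added was not measured here.

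The 4 CCNB1-positive libraries held between 14109500 and 23916160 reads on genes, and the lowest depth was that of treated replicate 2. Mitochondrially encoded genes took 4.91% to 6.57% of the reads in the untreated CCNB1-positive libraries and 11.9% to 13.4% in the treated ones, and the nuclear RNA MALAT1 took 0.382% to 0.386% and 2.01% to 3.09%. The part of these shares in the results below was not tested, apart from the scaling without them described next. Gate markers (8 genes, CCNB1, CCNB2, CCNA2, CDK1, PLK1, AURKA, TOP2A and CENPF) summed to 3706 and 4165 RPM in untreated and 2675 and 2774 RPM in treated CCNB1-positive cells. In CCNB1-negative cells the same sum was 861 to 970 RPM untreated and 91.1 to 125 RPM treated, so that the gate separated the fractions in both conditions. The 9 markers of colorectal epithelium summed to 11564 and 11940 RPM without the drug and to 10393 and 7603 RPM with it. Among 6 leukocyte markers LYZ gave nearly all of the sum, 510 to 1016 RPM, whereas PTPRC and CD3E stood at 0.329 RPM or less in every CCNB1-positive library. The 8 markers of stroma and endothelium summed to 2.17 and 2.15 RPM untreated and to 6.73 and 5.40 RPM treated, of which only COL1A1 reached the level for testing.

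Selumetinib changed a large part of the transcriptome of CCNB1-positive cells. With limma and Benjamini-Hochberg adjustment over 14219 genes, 9288 genes (65.3%) passed an adjusted p of 0.05, of which 5400 (38.0% of genes tested) were higher and 3888 (27.3%) lower in treated cells. Past 4-fold were 1216 higher and 102 lower genes, together 1318 (9.27%). The filter on the mean level also let in genes that are low in 1 group, 962 with under 1 RPM in untreated cells (825 called higher) and 67 with under 1 RPM in treated cells (35 called lower), so the balance of large changes is not read here. With at least 1 RPM in both groups 4575 of 13202 genes were higher and 3853 lower, and a filter of 10 RPM left 374 genes past 4-fold. The treated and untreated libraries did not overlap for 12197 genes (85.8% of those tested), among them 9286 of the 9288 that passed. The 2 libraries of a group differed by a median of 0.178 (untreated) and 0.174 (treated) on the log2 scale, and the median standard error of a log2 fold change was 0.186. Each library is scaled to its own total, so a change in the RNA content of a cell cannot be seen, and for a transcript made by some of the sorted cells, fewer such cells and less RNA per cell cannot be told apart.

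The median log2 fold change of all genes tested was 0.17, and it moved with the scaling, to −0.08 with quantile normalisation, 0.42 with reads on nuclear genes other than MALAT1, −0.18 with median-of-ratios factors and 0.27 with limma-voom. Higher genes made up 58.1% of the calls as deposited, and 47.1%, 71.9%, 40.9% and 63.6% under these 4 scalings in the same order. Gene lists are therefore described by a centred median, which is the median log2 fold change of the members tested minus that of all genes tested. Counts of members that rose or fell are to be read against 38.0% higher and 27.3% lower among all genes tested. Where a list's own median or a named gene changed sign or its call under a scaling, this is said beside it. The strand handling of the counting is not given in the sources used here and 52.8% of the genes tested overlap a gene on the opposite strand (110 of the 238 genes tabulated by name), for which reads of the 2 strands may not be separated.

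**Figure D1:**
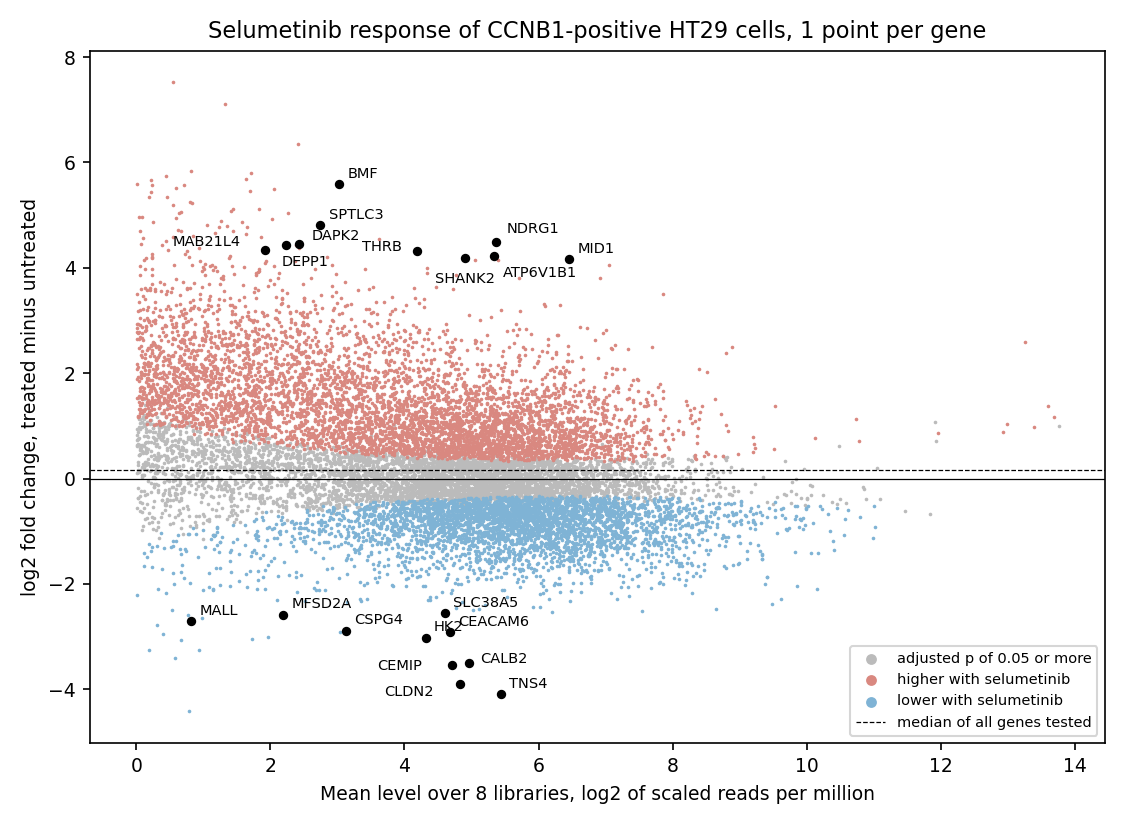
Log2 fold change of each of the 14219 genes tested (treated minus untreated CCNB1-positive cells, vertical axis) against its mean level over 8 libraries (log2 of RPM, horizontal axis), 1 point per gene, coloured by whether the adjusted p was under 0.05 and in which direction. The 10 labelled genes at the top (BMF at 5.59) and the 10 at the bottom (TNS4 at −4.10) are the largest changes among named genes with at least 10 reads in each CCNB1-positive library.

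The ranking of changes leaves out names shaped like clone identifiers and LINC names, and needs at least 10 reads in every CCNB1-positive library. By these rules the largest rise was that of BMF, a BH3-only promoter of apoptosis (chromosome 15, 40087890 to 40108892, GRCh38). BMF stood at 1.13 and 0.458 RPM in untreated and at 48.1 and 25.0 RPM in treated cells, a 48.3-fold increase (log2 fold change 5.59, SE 0.37, adjusted p = 1.32e-07). The 2 groups lay far apart although the untreated level rests on few reads. NDRG1, a gene induced in differentiation and hypoxia, rose from 8.11 and 6.05 RPM to 197 and 127 RPM (22.6-fold), and THRB, a thyroid hormone receptor, from 3.30 and 3.02 RPM to 56.5 and 70.6 RPM (log2 fold change 4.32). The other rises of this rank were SPTLC3 (log2 fold change 4.82), which encodes a serine palmitoyltransferase subunit, the death-associated kinase DAPK2 (4.45), the FOXO-responsive gene DEPP1 (4.43), MAB21L4 (4.34), the proton pump subunit ATP6V1B1 (4.23), the scaffold SHANK2 (4.18) and the ubiquitin ligase MID1 (4.16). MID1 was the most abundant of them, at 266 and 381 RPM in treated cells. SHANK2, MID1, THRB, DAPK2 and SPTLC3 span 160132 to 784722 bp, and the other rises named here 7830 to 64852 bp. Long genes rose more often, as described below, and the part of span in this ranking was not tested.

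By the same rules the deepest fall was that of TNS4, a focal adhesion protein (chromosome 17, 40475828 to 40501623). Its level was 266 and 222 RPM in untreated and 8.75 and 23.1 RPM in treated cells, a 17.1-fold decrease (log2 fold change −4.10, SE 0.32, adjusted p = 4.11e-07). The tight junction protein CLDN2 went from 149 and 156 RPM to 5.88 and 17.8 RPM (−3.90), the hyaluronidase CEMIP from 112 and 106 RPM to 6.40 and 13.5 RPM (−3.55) and the calcium buffer CALB2 from 146 and 145 RPM to 10.1 and 16.1 RPM (−3.51). For all 4 of these genes the groups lay far apart and treated replicate 2 kept more of the transcript than replicate 1. The remaining falls by rank were hexokinase HK2 (−3.02), the adhesion molecule CEACAM6 (−2.91), the proteoglycan CSPG4 (−2.89), MALL (−2.70), the lipid transporter MFSD2A (−2.58) and the glutamine transporter SLC38A5 (−2.56).

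The direct output of ERK signalling was lower in treated CCNB1-positive cells but still detected. Of 10 genes used elsewhere as a readout of MAPK pathway activity, 9 fell and 1, the ephrin receptor EPHA4, rose, with a centred median of −1.51. The ETS factors ETV4 and ETV5 fell most. ETV4 was measured at 77.8 and 75.9 RPM untreated and at 9.46 and 24.5 RPM treated (log2 fold change −2.34, SE 0.31, adjusted p = 2.24e-05), and ETV5 at 36.5 and 34.9 RPM and at 5.98 and 13.0 RPM (−2.02, SE 0.30, adjusted p = 5.28e-05). The treated libraries were thus well apart from each other for both genes, and the lower of them was replicate 1. PHLDA1 fell from 91.3 and 97.0 RPM to 30.0 and 26.7 RPM (−1.73, SE 0.16, adjusted p = 1.25e-06) and the receptor EPHA2 by 1.39 on the log2 scale. DUSP6, the phosphatase that removes phosphate from ERK in the cytoplasm, kept more of its level, with 67.8 and 63.2 RPM untreated and 24.8 and 39.6 RPM treated (−1.06, SE 0.20, adjusted p = 0.000325). The feedback inhibitor SPRY4 behaved alike, at 42.8 and 28.8 RPM against 12.2 and 19.2 RPM (−1.20, SE 0.25, adjusted p = 0.000796). Treated replicate 2 was the higher treated library for 8 of the 10 genes and for 46.8% of all genes tested. EPHA4 was near the floor in untreated cells, at 0.376 and 0.366 RPM, and reached 2.45 and 4.02 RPM.

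**Figure D2:**
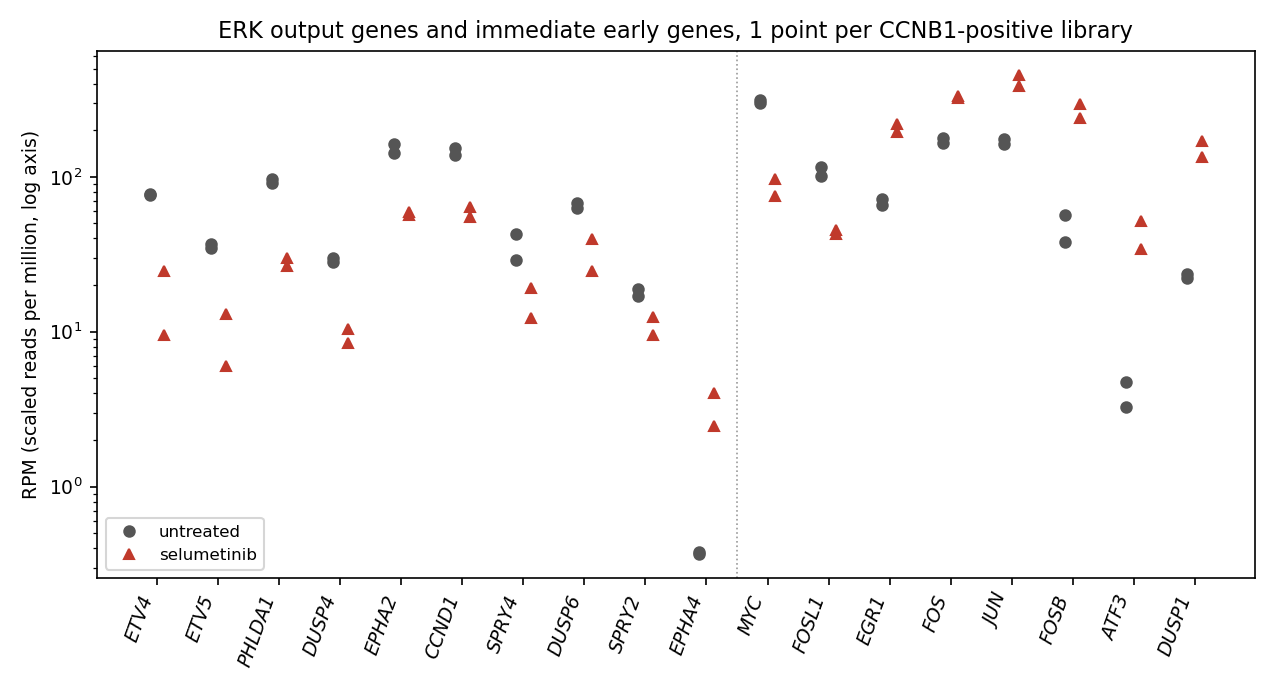
Level of the 10 MAPK pathway activity genes (left of the dotted line) and of MYC, FOSL1, 5 immediate early genes and DUSP1 (right) in each CCNB1-positive library, as RPM on a log axis, with 1 grey circle per untreated and 1 red triangle per selumetinib library. The treated points lie below the untreated ones for 9 of the 10 genes on the left and for MYC and FOSL1, and above them for EPHA4, EGR1, FOS, JUN, FOSB, ATF3 and DUSP1.

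The inhibitors through which ERK limits itself were mostly lower. Of 15 ERK phosphatases and feedback inhibitors tested, 10 fell and 3 rose (centred median −0.88). The nuclear phosphatases DUSP4 (log2 fold change −1.64, SE 0.18) and DUSP2 (−1.65, SE 0.19), the cytoplasmic DUSP7 (−1.88, SE 0.30) and the RAS inhibitor SPRED1 (−1.33, SE 0.17) were among the falls. The rises were DUSP1, DUSP16 and DUSP8. DUSP1 stood at 23.7 and 22.1 RPM in untreated and at 170 and 133 RPM in treated cells (2.72, SE 0.18, adjusted p = 1.02e-07), a 6.57-fold rise with no overlap. DUSP16 rose by 1.33, and DUSP8 by 0.99, a call that was lost under median-of-ratios scaling.

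Immediate early genes, which are induced within minutes of a stimulus, did not fall as a group. Of 15 AP-1 and immediate early genes 10 rose and 5 fell (centred median 0.76). EGR1, a zinc finger factor commonly read as an ERK target, was at 72.0 and 65.5 RPM untreated and at 218 and 194 RPM treated (log2 fold change 1.58, SE 0.22, adjusted p = 3.96e-05). ATF3, a stress-induced bZIP factor, rose from 4.72 and 3.25 RPM to 51.9 and 34.1 RPM (3.42, SE 0.24, adjusted p = 1.88e-07), and FOSB, JUN and FOS by 2.53, 1.30 and 0.93. Against these stood FOSL1, the AP-1 subunit that depends on sustained ERK activity, with 116 and 101 RPM untreated and 43.0 and 45.3 RPM treated (−1.29, SE 0.16, adjusted p = 1.18e-05). MYC was at 300 and 313 RPM and then at 75.1 and 96.5 RPM, a 3.60-fold decrease (−1.85, SE 0.16, adjusted p = 8.59e-07), and IER3 fell by 1.53. Among 15 ETS factors 7 fell and 5 rose (centred median −0.49), against 27.3% lower and 38.0% higher among all genes tested. ELK1 fell by 1.06 beside ETV4 and ETV5, and ELF3, an epithelial factor (1.80), ETV6 (1.64) and ELF1 (1.42) were among the rises.

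Upstream of ERK, transcripts of several receptors and activators rose. In the RAS-RAF-MEK-ERK cascade 8 of 19 genes rose and 4 fell, near the shares of all genes, and the list median of 0.10 turned to −0.24 under median-of-ratios scaling. These genes were long, with a median span of 105500 bp against 32194 bp for all genes tested, and BRAF spans 205602 bp. Long genes rose more often, as described below, and the part of span here was not tested. The exchange factors that load RAS with GTP were the strongest, SOS2 going from 6.36 and 5.31 RPM to 35 RPM in both treated libraries (log2 fold change 2.59, SE 0.19, adjusted p = 2.28e-07) and SOS1 rising by 1.78. BRAF itself rose from 36.8 and 34.7 RPM to 90.2 and 107 RPM (1.46, SE 0.20, adjusted p = 2.84e-05), whereas NRAS and HRAS fell by 0.93 and 0.80. Of 10 genes of the EGFR family and its ligands 6 rose and 1 fell (centred median 0.65). EGFR was at 54.7 and 52.6 RPM untreated and at 51.0 and 52.0 RPM treated (−0.06, SE 0.14, adjusted p = 0.717), a difference that became a call, lower, under median-of-ratios scaling only and turned to 0.19 with nuclear scaling and 0.044 with limma-voom. ERBB3, the kinase-impaired member that couples to PI3K, rose from 138 and 132 RPM to 308 and 305 RPM (1.18, SE 0.14, adjusted p = 9.17e-06), and ERBB2 rose by 0.73. The ligands NRG4 (3.41), AREG (0.84) and EREG (0.78) were higher, while TGFA fell by 0.55, a call lost with scaling to nuclear reads.

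Among 16 other receptor kinases and adaptors 8 rose and 6 fell (centred median 0.30), against 38.0% higher and 27.3% lower among all genes tested. The insulin receptor INSR showed the clearest rise, from 10.7 and 9.48 RPM to 89.4 and 95.0 RPM, or 9.13-fold (log2 fold change 3.19, SE 0.18, adjusted p = 4.74e-08). GAB2 (2.37), FGFR2 (1.78) and IGF1R (0.95) also rose. On the other side FGF19, the ligand of FGFR4, dropped from 12.2 and 9.76 RPM to 0.282 and 0.922 RPM (−4.42, SE 0.52, adjusted p = 8.58e-06), its receptor FGFR4 fell by 1.02, and the adaptor IRS1 and the receptor MET fell by 0.93 each.

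**Figure D3:**
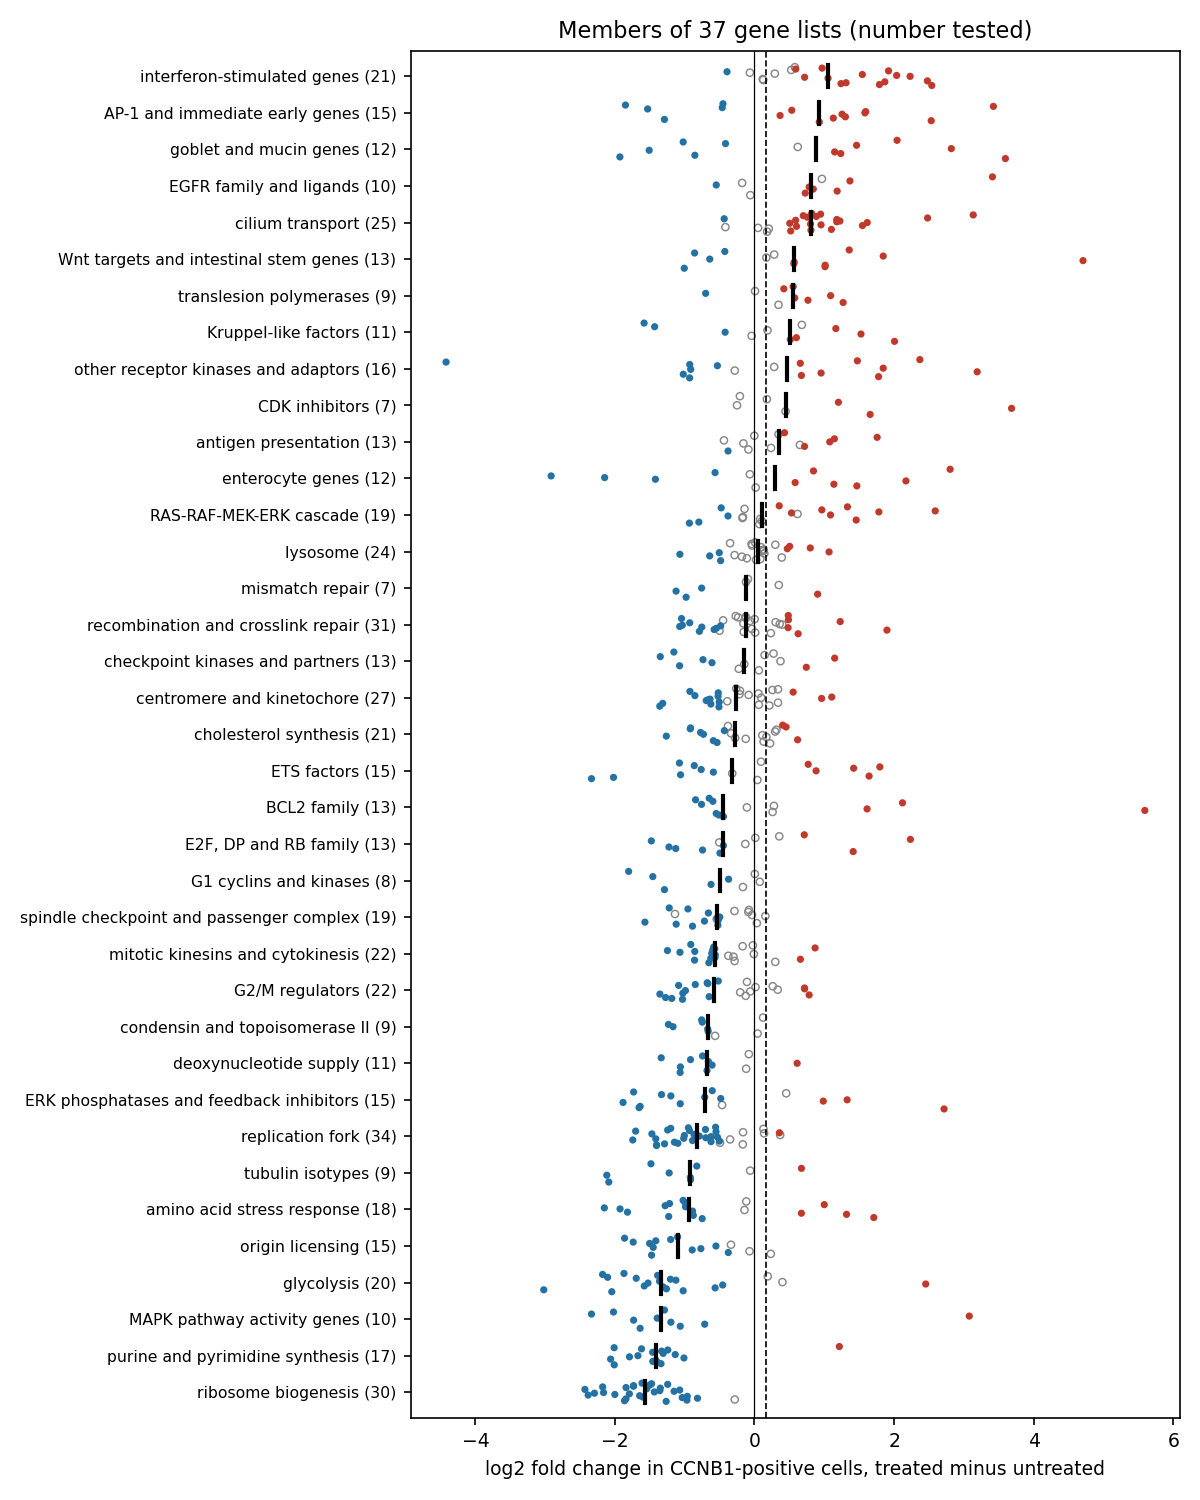
Log2 fold change in CCNB1-positive cells (treated minus untreated, horizontal axis) of every tested member of 37 gene lists, 1 point per gene, filled red or blue where the gene passed an adjusted p of 0.05 and open where it did not. The short black bars are list medians, ordered from interferon-stimulated genes (1.05) at the top to ribosome biogenesis (−1.57) at the bottom, and the dashed line is the median of all genes tested (0.17).

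Cyclins and kinases of the G1 to S transition were lower or not called in these cells. None of 8 G1 cyclins and kinases rose and 5 fell (centred median −0.66), against 27.3% lower among all genes tested. Cyclin D1 (CCND1), which couples ERK to the cell cycle, was at 153 and 138 RPM untreated and at 55.1 and 64.1 RPM treated (log2 fold change −1.29, SE 0.14, adjusted p = 5.36e-06). Its partner CDK4 fell by 1.46 and the CDK-activating phosphatase CDC25A by 1.80. Cyclin E2 (CCNE2), which drives entry into S phase, showed 2.38 and 2.15 RPM against 2.16 and 2.63 RPM (0.08, SE 0.28, adjusted p = 0.819), with overlapping libraries, and quantile normalisation turned this into a call in the other direction, while median-of-ratios scaling gave −0.27 without a call. Cyclin E1 (CCNE1) fell by 0.62 (SE 0.24, adjusted p = 0.0319) from 6.40 and 5.54 RPM to 3.20 and 4.68 RPM, which nuclear scaling and limma-voom did not call. Both transcripts were already low without the drug. The log2 difference of untreated CCNB1-positive minus untreated CCNB1-negative cells was −3.37 for CCNE2 and −2.43 for CCNE1.

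Of 7 CDK inhibitors 3 rose, near the 38.0% of all genes, and 0 fell (centred median 0.28), and treated replicate 1 was above replicate 2 for all 7. CDKN1C (p57) rose from 1.76 and 0.733 RPM to 16.5 and 12.9 RPM (log2 fold change 3.68, SE 0.34, adjusted p = 1.22e-06) and CDKN2B (p15) by 1.20. CDKN1A (p21) was low and uneven, at 2.80 and 1.33 RPM untreated and 9.69 and 3.82 RPM treated (1.66, SE 0.49, adjusted p = 0.00899), and its call was lost with quantile normalisation. CDKN1B (p27) was 43.4 and 42.3 RPM and then 64.3 and 53.0 RPM (0.45, SE 0.19, adjusted p = 0.0574), which passed under quantile, nuclear and limma-voom scaling. In the E2F, DP and RB family 6 of 13 genes fell and 3 rose (centred median −0.61). E2F1, the activator of S phase genes, fell from 34.5 and 30.3 RPM to 22.2 and 23.7 RPM (−0.50, SE 0.15, adjusted p = 0.0107, lost with nuclear scaling). Its partner TFDP1 fell by 1.48, E2F4 by 1.13 and E2F5 by 1.23, while TFDP2 rose by 2.23 and the repressor RBL2 by 0.71. E2F2 rose from 1.51 and 1.01 RPM to 2.68 and 4.02 RPM (1.41, SE 0.38, adjusted p = 0.00481), a call lost with quantile normalisation.

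Genes of DNA replication fell broadly. Of 15 origin licensing genes 12 fell and 0 rose (centred median −1.27), and of 34 replication fork genes 26 fell and 1 rose (centred median −0.996), against 27.3% lower among all genes tested. MCM2, a subunit of the replicative helicase, was measured at 121 and 128 RPM in untreated and at 43.1 and 45.0 RPM in treated cells (log2 fold change −1.50, SE 0.15, adjusted p = 2.08e-06). MCM6 and MCM3 fell by 1.86 and 1.74. PCNA, the sliding clamp, went from 202 and 221 RPM to 61.8 and 64.3 RPM (−1.74, SE 0.17, adjusted p = 1.80e-06), and the polymerase epsilon subunit POLE3 fell by 1.70. TIPIN, which protects stalled forks, was at 27.8 and 28.8 RPM and then at 12.7 and 12.9 RPM (−1.15, SE 0.19, adjusted p = 0.000151). Replicates lay close together for these genes, and the groups did not overlap. The single rise was that of POLD4 (0.36), a polymerase delta subunit, which median-of-ratios scaling did not call.

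A deoxynucleotide supply accompanies replication, and of 11 such genes 8 fell and 1 rose (centred median −0.85). Thymidylate synthase TYMS fell from 170 and 188 RPM to 77.6 and 94.6 RPM (log2 fold change −1.06, SE 0.15, adjusted p = 3.11e-05), the ribonucleotide reductase subunit RRM1 by 1.07 and the deaminase DCTD by 1.34.

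Replication genes share a promoter element, the E2F site, and the promoter of POLA1, the catalytic subunit of the polymerase that primes both strands, is shown for this reason. POLA1 fell from 27.8 and 26.9 RPM to 16.9 and 18.7 RPM (log2 fold change −0.62, SE 0.16, adjusted p = 0.0038, lost with nuclear scaling), and was the only called member of the replication fork list whose RefSeq window lies before the gene's position in the table and holds the letters TTCCCGC on either strand. The sequence is that of the 250 bases before the RefSeq start on GRCh38.p14, at chrX:24693668-24693917 on the plus strand, 5′ to 3′, with the match in capitals.
POLA1: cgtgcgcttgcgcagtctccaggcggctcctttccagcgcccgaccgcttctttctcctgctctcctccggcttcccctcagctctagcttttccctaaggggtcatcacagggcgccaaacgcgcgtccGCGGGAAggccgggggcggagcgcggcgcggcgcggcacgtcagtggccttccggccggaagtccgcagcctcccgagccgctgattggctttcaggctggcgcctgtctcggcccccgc
Such a match was present in 7 of 22 replication fork genes with a single RefSeq start (31.8%) and in 3 of 10 origin licensing genes (30.0%), compared with 9.15% of 7106 tested genes with such a window. A match is a run of letters and not a measured binding site.

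Repair genes of the S and G2 phases were mixed. Of 31 genes of recombination and crosslink repair 9 fell, 6 rose and 16 did not pass (centred median −0.29), and the list median of −0.13 became 0.13 with nuclear scaling. The share of falls was near the 27.3% of all genes tested, and that of rises was below the 38.0%. XRCC3 (log2 fold change −1.07), the nuclease EXO1 (−1.03) and the end resection factor RBBP8 (−0.93) fell. RAD51B rose from 23.7 and 20.3 RPM to 71.4 and 93.6 RPM (1.90, SE 0.21, adjusted p = 5.55e-06), the helicase BRIP1 from 20.6 and 16.9 RPM to 37.8 and 50.7 RPM (1.23, SE 0.22, adjusted p = 0.000287), and BRCA1 by 0.63, a call lost under median-of-ratios scaling. BRCA2 gave 28.4 and 25.4 RPM untreated against 28.5 and 35 RPM treated (0.23, SE 0.18, adjusted p = 0.265), higher with nuclear scaling and of the opposite sign with median-of-ratios factors.

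Of 13 checkpoint kinases and their partners 5 fell and 2 rose (centred median −0.31, with a list median of −0.15 that nuclear scaling turned to 0.11). Among all genes tested 27.3% were lower and 38.0% higher. CHEK1, the kinase that halts cells with damaged or stalled forks, was at 68.2 and 69.5 RPM untreated and at 31.8 and 33.7 RPM treated (log2 fold change −1.07, SE 0.15, adjusted p = 3.23e-05). HUS1 fell by 1.35 whereas RAD9A, another subunit of the same clamp, rose by 1.15 and ATM by 0.74, the last not called under median-of-ratios scaling.

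The G2 and mitotic programme that defines this fraction fell moderately. CCNB1 mRNA itself (chromosome 5, 69167135 to 69178245) was at 591 and 711 RPM in untreated and at 290 and 248 RPM in treated CCNB1-positive cells, 2.42-fold lower (log2 fold change −1.27, SE 0.21, adjusted p = 0.000135), although both groups were sorted on the protein. Of 22 G2/M regulators 12 fell and 3 rose (centred median −0.75). PLK1, the kinase of mitotic entry, was at 420 and 477 RPM and then at 192 and 159 RPM (−1.36, SE 0.20, adjusted p = 5.85e-05), and CCNA2 (−1.19), AURKA (−1.03), CDK1 (−1.03) and the transcription factor MYBL2 (−0.99) also fell. FOXM1, which drives late cell cycle genes, had overlapping libraries at 202 and 177 RPM against 169 and 195 RPM (−0.06, SE 0.15, adjusted p = 0.742), a value that changed sign under 3 of the scalings and was called lower under median-of-ratios scaling. The phosphatase CDC25C, which activates CDK1, rose from 61.6 and 62.0 RPM to 95.8 and 118 RPM (0.78, SE 0.18, adjusted p = 0.00152), and LIN37, a subunit of the DREAM complex, rose by 0.72 except under median-of-ratios scaling, where it was not called. The other Polo-like kinases were less affected, PLK2 falling from 178 and 163 RPM to 114 and 99.8 RPM (−0.68, SE 0.16, adjusted p = 0.00203), and PLK3 measuring 18.0 and 14.6 RPM against 15.1 and 15.0 RPM (−0.11, SE 0.18, adjusted p = 0.612), with a sign that turned under nuclear scaling and a call, lower, under quantile and median-of-ratios scaling.

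Further mitotic lists were lower too. Of 19 genes of the spindle checkpoint and passenger complex 11 fell and 0 rose (centred median −0.70), of 27 centromere and kinetochore genes 12 fell and 3 rose (−0.43), of 22 mitotic kinesins and cytokinesis genes 13 fell and 2 rose (−0.73), and of 9 condensin and topoisomerase II genes 6 fell and 0 rose (−0.84). These counts depended on the scaling, the falls numbering 6 with quantile, 5 with nuclear and 17 with median-of-ratios scaling among kinesins and cytokinesis genes, and 6, 6 and 15 in the spindle checkpoint list. MAD2L1, the checkpoint effector, fell from 132 and 160 RPM to 51.9 and 46.1 RPM (log2 fold change −1.57, SE 0.18, adjusted p = 7.60e-06), the ubiquitin-conjugating enzyme UBE2S by 1.22 and BUB3 by 1.12. CENPB (−1.36), CENPH (−1.32), the cytokinesis factor ECT2 (−1.25), the spindle protein TPX2 (−1.07), PRC1 (−0.86) and the condensin subunits NCAPD3 (−1.23) and NCAPH (−1.17) fell likewise. Topoisomerase II alpha, TOP2A, was the most abundant gate marker, at 1250 and 1413 RPM against 1336 and 1566 RPM (0.12, SE 0.21, adjusted p = 0.62), with overlapping libraries, a sign that turned under median-of-ratios scaling and a call under quantile normalisation. Among the rises were CENPT (1.11), CENPP (0.96), the citron kinase CIT (0.87) and KIF18B (0.66, lost under median-of-ratios scaling).

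A pair of promoters is shown from these lists because late cell cycle genes carry 2 elements, the CHR (searched as TTTGAA) and the CCAAT box (searched as CCAAT), both on either strand. CKS2, which encodes a CDK1-binding subunit, fell from 190 and 272 RPM to 125 and 128 RPM (log2 fold change −0.85, SE 0.20, adjusted p = 0.00242). KIF18A, a kinesin that limits chromosome oscillation, fell from 82.9 and 87.3 RPM to 46.9 RPM in both treated libraries (−0.86, SE 0.16, adjusted p = 0.000463). Each is the called member of its list with the lowest adjusted p among those with both matches in a window that lies before the gene's position in the table. The windows are the 250 bases before the RefSeq start on GRCh38.p14, chr9:89310945-89311194 (plus strand) for CKS2 and chr11:28108157-28108406 (minus strand) for KIF18A, written 5′ to 3′ along the gene with the matches in capitals.
CKS2: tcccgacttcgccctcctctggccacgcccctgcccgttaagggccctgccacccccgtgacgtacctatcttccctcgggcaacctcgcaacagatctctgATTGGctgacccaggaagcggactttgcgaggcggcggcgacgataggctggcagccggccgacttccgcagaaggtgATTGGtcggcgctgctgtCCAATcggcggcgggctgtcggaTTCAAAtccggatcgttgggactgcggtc
KIF18A: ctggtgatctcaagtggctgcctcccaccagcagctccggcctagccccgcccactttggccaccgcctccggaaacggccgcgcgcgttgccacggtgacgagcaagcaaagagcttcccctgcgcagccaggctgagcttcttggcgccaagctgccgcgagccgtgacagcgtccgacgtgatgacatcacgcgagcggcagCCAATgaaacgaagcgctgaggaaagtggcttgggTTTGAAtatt
CKS2 had 1 CHR match and 3 CCAAT matches, and KIF18A 1 of each. CHR matches occurred in 7 of 13 G2/M regulators (53.8%) and in 10 of 17 mitotic kinesins and cytokinesis genes (58.8%) with a single RefSeq start, in 0 of 22 replication fork genes, and in 8.04% of all 7106 windows. For CCAAT the shares were 76.9%, 82.4% and 59.1%, against 36.9% of all windows.

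Genes of ribosome biogenesis fell almost without exception. Of 30 ribosome biogenesis genes 29 fell, 0 rose and 1, the RNA polymerase subunit POLR1D (log2 fold change −0.28, adjusted p = 0.106, called lower under median-of-ratios scaling), did not pass, with a centred median of −1.74. Nucleolin (NCL) went from 1955 and 2030 RPM to 362 and 402 RPM, 5.22-fold lower (−2.38, SE 0.19, adjusted p = 3.72e-07). NOLC1 (−2.29), RRP9 (−2.43) and BOP1 (−2.16) fell to a like extent, nucleophosmin (NPM1) went from 1367 and 1584 RPM to 359 and 376 RPM, and under each of the 4 scalings 29 or 30 of the 30 genes fell. None of 16 windows of this list held the E-box CACGTG, the letters bound by MYC, which 9.26% of all windows held. At that share few matches would be found in 16 windows, and sequence outside the windows was not searched. The part of MYC in these falls was not tested.

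Nucleotide synthesis and glycolysis were lower as well. Of 17 genes of purine and pyrimidine synthesis 16 fell and 1 rose (centred median −1.58). PAICS, a purine synthesis enzyme, fell from 358 and 398 RPM to 80.8 and 101 RPM (log2 fold change −2.06, SE 0.16, adjusted p = 3.29e-07), CTPS1 by 2.01 and ATIC by 1.79, while CTPS2, the other CTP synthase, rose by 1.22. Of 20 glycolysis genes 17 fell and 1 rose (−1.50). Enolase ENO1 was measured at 2602 and 3182 RPM untreated and 646 and 693 RPM treated (−2.10, SE 0.20, adjusted p = 1.52e-06). HK2, the first enzyme of the pathway, fell from 63.7 and 63.5 RPM to 6.07 and 10.1 RPM (−3.02, SE 0.22, adjusted p = 2.06e-07), LDHA by 2.18, the glucose transporter SLC2A1 by 2.04 and GAPDH by 1.13. PFKFB4, which sets the level of an activator of phosphofructokinase, rose by 2.45 from a low level of 1.17 and 0.916 RPM.

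In the amino acid stress response, the set of genes under ATF4, 12 of 18 fell and 4 rose (centred median −1.10). The transporters SLC7A5 (286 and 263 RPM to 60.2 and 63.2 RPM, log2 fold change −2.15, SE 0.14, adjusted p = 1.14e-07) and SLC7A11 (−1.93) fell, and ATF4 itself by 0.75. DDIT3 (CHOP) rose from 10.7 and 9.53 RPM to 32.9 and 33.1 RPM (1.71, SE 0.16, adjusted p = 1.41e-06) and CHAC1 by 1.32, the latter lost with quantile normalisation. Of 21 cholesterol synthesis genes 8 fell and 3 rose (centred median −0.44), against 27.3% lower and 38.0% higher among all genes tested. SQLE (−1.26) and DHCR7 (−0.92) were among the falls. The rises of MVD (0.62) and INSIG1 (0.45) were lost under median-of-ratios scaling, that of INSIG1 also with quantile normalisation.

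The BCL2 family moved in both directions. Of 13 genes 7 fell and 3 rose (centred median −0.61). Beside BMF, the BH3-only genes BIK (1.42 and 1.74 RPM to 7.81 and 5.99 RPM, log2 fold change 2.12, SE 0.29, adjusted p = 2.83e-05) and BBC3 (1.61, SE 0.31, adjusted p = 0.000414) rose. BCL2L11 (BIM), whose protein ERK destabilises, gave 16.9 and 13.3 RPM untreated and 19.8 and 16.2 RPM treated (0.26, SE 0.19, adjusted p = 0.234), with overlapping libraries, a call (higher) with nuclear scaling and the opposite sign under quantile and median-of-ratios scaling. BID (−0.76), BAX (−0.60, lost with nuclear scaling) and the survival factor MCL1 (−0.55, lost with quantile and nuclear scaling) fell.

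Genes of intestinal differentiation moved in both directions. Of 12 enterocyte genes 6 rose and 4 fell, against 38.0% higher and 27.3% lower among all genes tested, and the list median of 0.30 became −0.04 under median-of-ratios scaling. The brush border protein CDHR5 rose from 10.4 and 9.39 RPM to 79.1 and 60.0 RPM (log2 fold change 2.80, SE 0.23, adjusted p = 5.54e-07), the fatty acid carrier FABP1 by 2.17 and HNF4A by 0.85, against falls of CEACAM5 (−2.15) and CEACAM1 (−1.42) beside CEACAM6. Of 12 goblet and mucin genes 6 rose and 5 fell, with a list median of 0.88 that quantile normalisation turned to −0.05. The trefoil peptide TFF3 rose from 6.15 and 5.95 RPM to 42.9 and 42.6 RPM (2.82, SE 0.18, adjusted p = 7.79e-08), MUC1 by 3.60 and FCGBP by 2.04. The secreted mucins themselves fell, MUC2 from 7.90 and 4.53 RPM to 1.79 and 1.38 RPM (−1.93) and MUC5AC from 332 and 260 RPM to 148 and 179 RPM (−0.85), as did AGR2 (−1.02), which folds them.

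Of 13 Wnt targets and intestinal stem cell genes 7 rose and 4 fell (centred median 0.40), against 38.0% higher and 27.3% lower among all genes tested. With quantile normalisation 5 were called higher and 2 lower, and with median-of-ratios scaling 4 higher and 4 lower. NOTUM, a secreted Wnt inhibitor, was almost undetected untreated at 0.251 and 0.183 RPM and reached 5.88 and 5.33 RPM (log2 fold change 4.71, SE 0.45, adjusted p = 1.69e-06). PROM1 (CD133) rose from 64.8 and 52.5 RPM to 164 and 136 RPM (1.36, SE 0.15, adjusted p = 6.36e-06) and EPHB2 by 1.84, the latter lost with quantile normalisation. LGR5, the marker of crypt base stem cells, fell from 12.7 and 11.8 RPM to 5.36 and 6.91 RPM (−1.01, SE 0.22, adjusted p = 0.00139) and CD44 by 0.86, a call lost with quantile normalisation. Of 11 Kruppel-like factors 5 rose and 3 fell (centred median 0.35), near the 38.0% and 27.3% of all genes, with KLF2 (2.01), KLF6 (1.53) and KLF12 (1.17) higher and KLF16 (−1.58) and KLF13 (−1.43) lower.

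Interferon-stimulated genes had the highest median of the 37 lists in the deposited scaling, though not with quantile normalisation. Of 21 tested, 14 rose and 1 fell (centred median 0.89), against 38.0% higher among all genes. STAT2, a transcription factor of type I interferon signalling, rose from 11.3 and 10.8 RPM to 44.0 and 39.7 RPM (log2 fold change 1.92, SE 0.16, adjusted p = 6.03e-07). IFIT3 went from 1.63 and 2.06 RPM to 12.6 and 8.30 RPM (2.48, SE 0.32, adjusted p = 1.67e-05), and ISG20 rose by 2.23. Most of these transcripts were scarce in untreated cells, and in treated cells replicate 1 was above replicate 2 for all 21. With quantile normalisation 8 of the 21 genes were called higher and 2 lower.

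The interferon-stimulated response element (searched on both strands as TTTC, any 2 bases and TTTC again) was found in 8 of 12 windows of this list (66.7%) and in 5 of 7 windows of antigen presentation genes (71.4%), against 2.21% of all windows. IFI6 is shown as the only called gene of the list whose window holds it and lies before the gene's position in the table. IFI6 rose from 1.46 and 1.28 RPM to 11 and 5.79 RPM (log2 fold change 2.54, SE 0.37, adjusted p = 5.29e-05). The window, 244 bases upstream of the gene at chr1:27672199-27672442 (minus strand, GRCh38.p14, RefSeq), has 3 matches, in capitals.
IFI6: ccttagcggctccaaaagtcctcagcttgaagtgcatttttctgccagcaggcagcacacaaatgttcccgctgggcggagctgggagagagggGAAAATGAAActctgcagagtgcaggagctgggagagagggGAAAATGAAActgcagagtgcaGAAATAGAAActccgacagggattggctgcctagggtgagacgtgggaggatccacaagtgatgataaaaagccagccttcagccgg
Of 13 antigen presentation genes 5 rose, near the 38.0% of all genes, and 1 fell (centred median 0.18), treated replicate 1 being above replicate 2 for all 13 and the list median of 0.34 shrinking to 0.00 under median-of-ratios scaling. The immunoproteasome subunit PSMB8 rose by 1.76 (SE 0.32), the peptide-loading protein TAPBP by 1.15 (SE 0.18) and HLA-E by 0.72 (not called under median-of-ratios scaling).

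Genes of cilium transport and the tubulin isotypes differed in direction. Of 25 genes of cilium transport 20 rose and 1 fell (centred median 0.64). The dynein heavy chain DYNC2H1, the motor of retrograde transport, went from 3.55 and 3.02 RPM to 29.6 and 28.0 RPM (log2 fold change 3.13, SE 0.20, adjusted p = 9.78e-08), BBS9 rose by 2.48 and IFT80 by 1.55, and BBS7 fell by 0.43 (not called with nuclear or limma-voom scaling). These genes were longer than most, with a median span of 56926 bp against 32194 bp for all genes tested. Of 9 tubulin isotypes 7 fell and 1 rose (centred median −1.09). TUBA4A fell from 181 and 200 RPM to 39.6 and 48.6 RPM (−2.12, SE 0.15, adjusted p = 2.20e-07) and gamma tubulin TUBG1 by 1.48, while the rise of TUBB3 (0.67) was lost with quantile and median-of-ratios scaling and reversed with the former.

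The direction of change went with the span of a gene in the genome. Genes were put into 5 groups of equal size by span. In the group with the longest span, 98840 to 2473537 bp, 63.3% were higher and 10.4% lower in treated CCNB1-positive cells, with a median log2 fold change of 0.80. In the group with the shortest span, 57 to 9400 bp, 29.4% were higher and 32.3% lower, with a median of 0.00, and groups 2 and 3 gave medians of −0.15 and −0.07. Group 4 lay between, with 41.1% higher and a median of 0.23. The same medians in CCNB1-negative cells ran from −0.35, −0.39 and −0.24 through 0.20 to 1.05. Between replicates the group with the longest span differed by a median of −0.14 in untreated and 0.10 in treated cells (replicate 2 minus replicate 1). Names shaped like a clone identifier, with LINC names and possibly some gene symbols among them, belonged to 1940 of the genes tested. Their median log2 fold change was 0.75, with 998 higher and 260 lower. The part of gene span in the results of the lists was not tested.

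**Figure D4:**
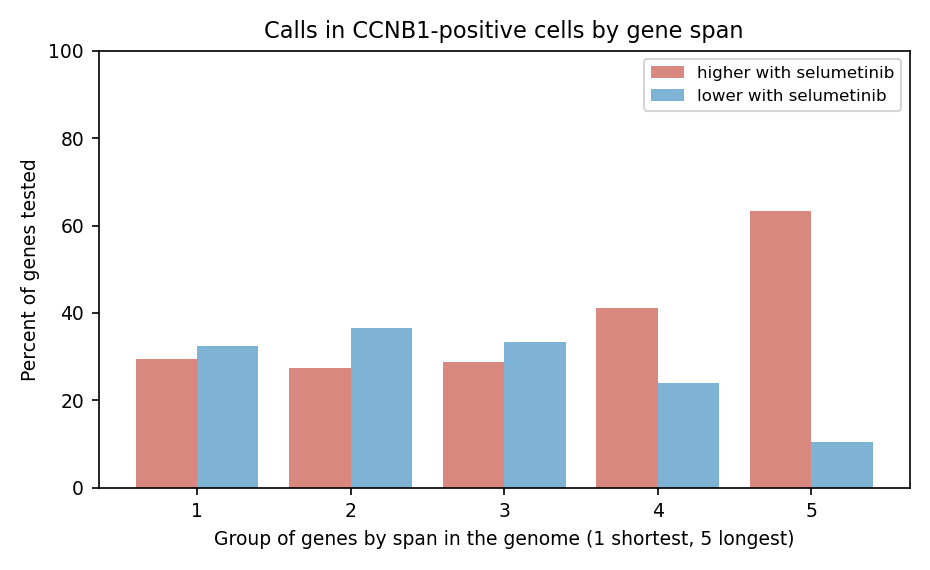
Share of the tested genes (percent, vertical axis from 0 to 100) that were higher (red) or lower (blue) in treated CCNB1-positive cells at an adjusted p under 0.05, in 5 equal groups of genes ordered by genomic span (horizontal axis, 1 shortest, 5 longest). The higher share is 29.4% in the first group and 63.3% in the last, and the lower share is 32.3% and 10.4%.

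Whether the response of CCNB1-positive cells differs from that of CCNB1-negative cells was tested by the interaction of treatment and fraction. 758 genes (5.33% of those tested) differed, of which 709 (4.99%) had a more positive response in CCNB1-positive cells and 49 a more negative one. Among the 709, 414 fell in both fractions but less in CCNB1-positive cells, 221 fell in CCNB1-negative cells and did not pass in CCNB1-positive cells, and 48 rose in CCNB1-positive and fell in CCNB1-negative cells. Of 8486 genes called in both fractions, 8438 had the same direction, a count that compares the sign of the responses and not their size.

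Cell cycle lists held many of the positive interactions, to be read against 4.99% of all genes. They comprised 21 of 22 mitotic kinesins and cytokinesis genes, 17 of 19 genes of the spindle checkpoint and passenger complex, 9 of 9 of condensin and topoisomerase II, 28 of 34 replication fork genes, 20 of 27 centromere and kinetochore genes, 23 of 31 of recombination and crosslink repair, 16 of 22 G2/M regulators and 9 of 15 origin licensing genes. Near the 4.99% of all genes were MAPK pathway activity (0 of 10), ribosome biogenesis (1 of 30), glycolysis (2 of 20) and cilium transport (0 of 25). The medians of these lists, in the same order, were −1.34, −1.57, −1.335 and 0.81 in CCNB1-positive cells. In CCNB1-negative cells they were −1.66, −1.97, −1.88 and 0.94. Cholesterol synthesis (12 of 21) and the amino acid stress response (9 of 18) were between. Median log2 fold changes in CCNB1-negative cells were −3.16 for mitotic kinesins, −2.32 for the replication fork and −3.36 for origin licensing, set beside −0.57, −0.83 and −1.10 in CCNB1-positive cells.

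**Figure D5:**
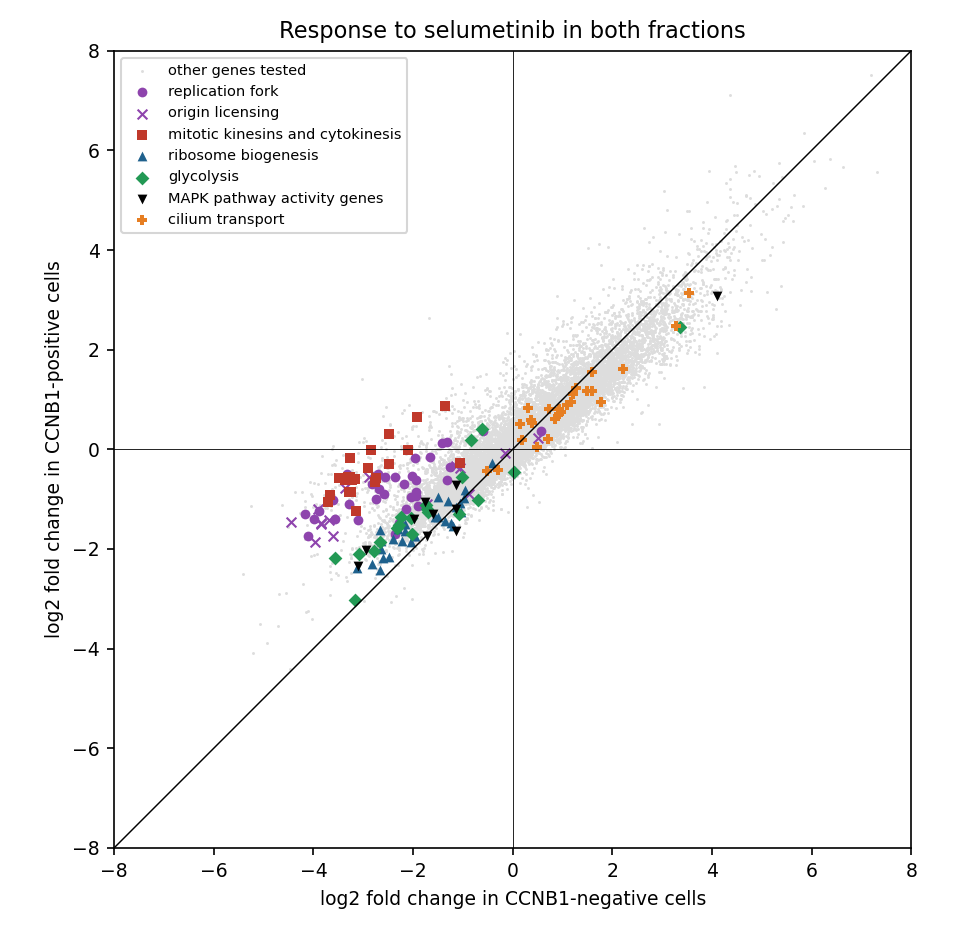
Log2 fold change with selumetinib in CCNB1-positive cells (vertical axis) against that in CCNB1-negative cells (horizontal axis) for each gene tested, with 7 lists marked and the line of equal response drawn. Mitotic and replication genes lie above the line on the left, and MAPK pathway activity, ribosome biogenesis, glycolysis and cilium genes lie nearer to it.

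E2F1 illustrates the difference. It was at 34.5 and 30.3 RPM in untreated and 22.2 and 23.7 RPM in treated CCNB1-positive cells, and at 138 and 130 RPM in untreated and 10.2 and 11.3 RPM in treated CCNB1-negative cells (difference of the responses 3.15, adjusted p = 3.94e-06). The fraction with the higher level thus changed with the drug, the log2 difference of CCNB1-positive minus CCNB1-negative cells being −2.05 without it (adjusted p = 4.29e-06) and 1.10 with it (adjusted p = 0.000169). CCNE2, at 2.38 and 2.15 RPM then 2.16 and 2.63 RPM in CCNB1-positive cells, went from 20.5 and 26.6 RPM to 2.17 and 1.70 RPM in CCNB1-negative cells (3.68, adjusted p = 3.02e-05). PCNA showed the exchange too, with 427 and 515 RPM in untreated and 31.8 and 23.2 RPM in treated CCNB1-negative cells, and a difference between fractions of −1.15 without the drug (adjusted p = 0.00108) and 1.22 with it (adjusted p = 0.000183). For MCM2 these differences were −0.90 (adjusted p = 0.00263) and 1.44 (adjusted p = 9.03e-06). The CCNB1-negative fraction also holds cells in G1 and S phase, and the part of the mix of phases in these differences was not tested.

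The 5 largest positive differences among named genes with at least 10 reads in all libraries were those of E2F2 (4.44), the repressor E2F7 (3.69), CCNE2 (3.68), FAM111B (3.63), which encodes a protease, and DDIAS (3.51), a damage-induced apoptosis suppressor. Of these only DDIAS fell in CCNB1-positive cells, from 26.6 and 26.7 RPM to 10.9 and 13.7 RPM (log2 fold change −1.13, SE 0.21, adjusted p = 0.000334). E2F7 measured 10.8 and 9.44 RPM against 7.53 and 11.3 RPM, and FAM111B 15.8 and 16.5 RPM against 16.9 and 15.6 RPM, so that treated and untreated libraries overlapped for both. The log2 fold change of E2F7 (−0.13) turned to 0.12 with nuclear scaling, and that of FAM111B (0.0083) to −0.29 with quantile and −0.33 with median-of-ratios scaling. The 5 largest negative differences were CALN1 (−2.59), the lysophospholipase PNPLA7 (−1.67), MPP7 (−1.57), the protocadherin PCDHGB7 (−1.43) and SWT1 (−1.42), all higher with the drug in both fractions, and the call of CALN1 in CCNB1-positive cells was lost with quantile and median-of-ratios scaling.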

How the data were processed

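The table analysed is the one the authors deposited for poly(A) mRNA-seq of HT29 cells. Per the labels and methods, the authors made directional libraries, trimmed reads (Trim Galore 0.5.0), aligned them to GRCh38 (HISAT2 2.1.0), quantified genes in SeqMonk and deposited log2 values normalised to total reads. The release of the annotation, and whether strand was used, are not given in the sources used here. The authors tested with DESeq2, and none of their comparison columns was used. All 8 value columns entered and 0 were set aside. Samples were tied to columns by their description, which the titles contradict, and the labels and methods name different growth media.

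The steps of the log2 values gave back whole reads for 100% of the genes detected per library, within 0.01 reads plus a small fraction of the count. At high counts any value meets this tolerance, so the 100% speaks only for genes with fewer reads. The depth found in this way was 12696860 to 23916160 reads on genes over the 8 libraries. Reads carry no molecular identifiers, so depth bounds counting error only. Replicates differed by more than sampling noise, with a chi-square per gene of 19.8 in untreated and 19.9 in treated CCNB1-positive cells. Genes with a mean log2 value of 4.58 or more (1 RPM) were fitted in limma 3.58.1 (R 4.3.3, trended variance) with 1 coefficient for each of the 4 groups. Benjamini-Hochberg adjustment ran over all genes tested, with calls at 0.05. Genes without reads keep the value that the table gives them. The interaction compared the fractions' responses. The procedure was tested on simulated data in which 200 genes changed. Far more genes were called in the real libraries, so that test cannot speak to the choice of scaling.

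The comparison, the gene lists and the genes always named were chosen with earlier results of these data known, so they describe and give no independent support. Beside 4 marker lists there were 37 gene lists. Of 659 distinct genes in them 604 were tested, 54 lay under the level and 1 matched no single row. Matching was by symbol, or by gene identifier for 4 genes. Named genes are list members and a fixed set of regulators of ERK and the cell cycle. The fixed set and the members with the lowest adjusted p of a list are always included. Added to them are the 10 largest rises and falls and the 5 largest interactions of each sign, with at least 10 reads per library compared. These rankings leave out names starting with AC, AL, AP, RP or LINC and a digit, or ending in a version number. Some gene symbols may fall under that pattern. Promoter windows are RefSeq's (GRCh38.p14), 250 bases before the start without the 50 after it, for 7106 genes with 1 listed start. Remaining steps ran in Python 3.11.15 (pandas 2.3.3, numpy 2.4.6, matplotlib 3.10.9). The alternatives were no filter, a filter of 10 RPM, quantile normalisation, scaling to nuclear reads without MALAT1, median-of-ratios scaling, 0.1 RPM as pseudocount, a replicate block, a fit of the CCNB1-positive libraries alone, limma-voom on the recovered reads, a threshold of 0.01, and leaving out each CCNB1-positive library. A replicate block within each treatment was added after seeing the data. Some list members are not reported here by name.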

Additional observations from a re-analysis of the deposited data

Results flagged for a closer look

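For 758 genes the effect of selumetinib was not the same in the sorted fractions, by the interaction term in limma with an adjusted p under 0.05. The named genes among them follow, with the log2 fold change in CCNB1-positive cells minus that in CCNB1-negative cells. No cause was tested. Among cyclins, E2F factors and their regulators it was CCNB1 (2.99), CCNE1 (2.17), CCNE2 (3.68), CDC25A (2.36), E2F1 (3.15), E2F2 (4.44), E2F7 (3.69), CCNA2 (2.59), CDK1 (3.14), CKS2 (1.67), CDC25C (2.20), PKMYT1 (2.86), MYBL2 (2.29), FOXM1 (2.87), PLK1 (1.96), AURKA (2.11) and CHEK1 (1.79). Among replication and repair genes the values were MCM2 (2.34), MCM3 (1.87), MCM6 (2.11), PCNA (2.37), RRM1 (1.92), TYMS (2.64), BRIP1 (2.45), BRCA1 (0.90), BRCA2 (2.46), EXO1 (2.66), XRCC3 (1.65), MSH6 (2.08), FAM111B (3.63) and DDIAS (3.51). For mitotic genes they were MAD2L1 (2.94), BUB3 (1.04), UBE2S (2.44), CENPH (2.16), CENPP (1.25), ECT2 (1.90), TPX2 (2.65), PRC1 (2.44), KIF18A (2.39), CIT (2.23), KIF18B (2.58), NCAPD3 (1.92), NCAPH (3.01) and TOP2A (2.68). For tubulins they were TUBA4A (1.14) and TUBG1 (1.23). For metabolic, transport and lysosomal genes they were SQLE (1.61), DHCR7 (1.16), MVD (0.89), INSIG1 (2.09), LDHA (1.39), PAICS (1.02), SLC7A5 (0.95), SLC7A11 (0.96), CHAC1 (2.36) and GLA (1.74). For signalling, stress and surface genes they were DUSP1 (0.98), ATF3 (1.42), DEPP1 (1.81), CALB2 (1.56), CEACAM5 (1.90), CEACAM6 (1.77) and CSPG4 (1.67). More negative responses in CCNB1-positive cells were those of CALN1 (−2.59), PNPLA7 (−1.67), MPP7 (−1.57), PCDHGB7 (−1.43), SWT1 (−1.42) and MID1 (−1.25).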

How the results depend on the processing

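The count of genes called in CCNB1-positive cells (9288) ranged from 6705 to 11218 over the planned settings with all libraries, and from 7293 to 8410 with 1 CCNB1-positive library left out, the lowest being that without untreated replicate 2. No gene called in both the deposited scaling and another setting changed direction, but the balance did with the scaling (higher share of calls 58.1%, and 40.9% to 71.9% over the alternatives). Genes called past 4-fold (1318) numbered 3089 with no filter on low values, 374 with a filter of 10 RPM and 735 with quantile normalisation, and genes called higher (5400) numbered 3107 with the filter of 10 RPM, which tests fewer genes. Differences between the responses (758) fell to 426 at an adjusted p under 0.01 and to 497 to 589 with 1 library left out, lowest without treated replicate 2. The positive ones (709) fell to 423 at that threshold. Negative differences (49) were unstable, at 326 with quantile normalisation, 32 with nuclear scaling, 105 with median-of-ratios scaling, 3 at an adjusted p under 0.01 and 8 to 65 with 1 library left out. Between CCNB1-positive and CCNB1-negative untreated cells 408 genes were called, 254 with quantile normalisation, 217 at an adjusted p under 0.01 and 224 to 451 with 1 library left out. In treated cells 3077 were called, 1338 at that threshold and 1278 to 2948 with 1 library left out, the lowest without treated CCNB1-positive replicate 1. Lists with a majority of members called higher (6) numbered 3 with quantile normalisation, 12 with nuclear scaling, 3 with median-of-ratios scaling, 3 at an adjusted p under 0.01 and 4 to 6 with 1 library left out, and lists with a majority called lower (16) 11 to 23. With quantile normalisation the log2 fold change was −1.12 for CCNE2, −0.0044 for CALN1 and −0.20 for TUBB3, each of opposite sign to the deposited scaling. The causes were not tested.

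The labels do not say that a replicate number marks a shared culture or batch. Over genes, the deviations of replicate 1 from the group mean correlated at −0.017 between untreated and treated CCNB1-positive cells, at −0.018 between untreated and treated CCNB1-negative cells, at −0.088 and 0.082 between a fraction of one treatment and the other fraction of the other, but at 0.35 between the 2 fractions of untreated and 0.43 between those of treated cells. The numbers are thus not seen to pair the treatments, and this is a hint from the data, not the design, that they pair the fractions of a treatment. In the fit with the replicate number as block term, 9764 genes were called (5667 higher, 4097 lower) and 883 differed between fractions, and the past 4-fold count stayed at 1318. A replicate block within each treatment, chosen after seeing the data and with 2 residual degrees of freedom, called 3850 differences between the responses (2739 positive, 1111 negative), and 1923 genes between the fractions of untreated and 6671 between those of treated cells. With 2 libraries per group a call rests on the spread shared over the 4 groups, and a library left alone in its group is assumed to vary like the others.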

Other observations

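A list of translesion and other repair polymerases held more rises than falls. Of its 9 genes, among them the base excision and end-joining polymerases POLB, POLL and POLM, 6 rose and 1 fell in treated CCNB1-positive cells (centred median 0.39, against 38.0% higher and 27.3% lower of all genes tested). REV3L, the catalytic subunit of polymerase zeta, was at 38.4 and 31.6 RPM untreated and at 66.7 and 82.4 RPM treated (log2 fold change 1.09, SE 0.17, adjusted p = 6.89e-05 by limma), and POLI rose by 1.27. MAD2L2, the accessory subunit of polymerase zeta, fell by 0.70. With quantile normalisation 3 of the 9 were called higher and 2 lower, and with median-of-ratios scaling 2 higher and 1 lower. Of 7 mismatch repair genes 3 fell and 1 rose, MSH6 from 35.1 and 31.6 RPM to 15.7 and 14.9 RPM (−1.12, SE 0.16, adjusted p = 3.42e-05) and MSH3 from 28.0 and 25.6 RPM to 50.1 and 50.2 RPM (0.90, SE 0.15, adjusted p = 0.000155). The list median of −0.12 turned to 0.13 with nuclear scaling.

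Lysosomal genes were mostly not called. Of 24 tested, 4 rose, 4 fell and 16 did not pass (centred median −0.11, and a list median of 0.05 that turned to −0.29 under median-of-ratios scaling). The sialidase NEU1 rose from 36.0 and 33.9 RPM to 86.6 and 62.0 RPM (log2 fold change 1.07, SE 0.19, adjusted p = 0.000309) and the sterol carrier NPC2 by 0.80, while the galactosidase GLA fell by 1.07 and CTSZ by 0.64 (lost with quantile and nuclear scaling). Treated replicate 1 was above treated replicate 2 for all 24, compared with replicate 2 above replicate 1 for 46.8% of all genes tested. The E-box CACGTG stood in 6 of 13 windows of this list (46.2%), against 9.26% of all windows.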
